A study of Mus musculus with 62 samples.

Results

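Carboxylesterases were described here through 10 mouse genes, Ces1c, Ces1d, Ces1e, Ces1f, Ces1g, Ces2a, Ces2c, Ces2e, Ces3a and Ces3b. Their rows were taken by Entrez identifier from the count tables of 3 tissues, with no filter on their values. The set of 10 was named with earlier results of these data known and is not the whole family. The liver table lists all 10 among its 16206 genes, the striatum table lists 1 of them (Ces1d) among 17874 genes, and the prefrontal cortex table lists 0 among 17653. The tables hold 62 RNA sequencing libraries, all from female mice of the inbred strain C57BL/6. Their treatment was oral exposure to the MARBLES mixture, a mixture of polychlorinated biphenyls (PCBs, industrial compounds that persist in the environment), with doses of 0 (vehicle), 0.1, 1 and 6 mg/kg. In this order of doses, the liver groups held 4, 4, 6 and 6 libraries and the groups of each brain region 4, 5, 6 and 6. No group carries a transgene or a deletion in the labels, and age, length of exposure and time of day of collection are not given in the sources used here. Livers are named below by the animal numbers of the labels.

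Carboxylesterases are serine hydrolases that cut ester, amide and carbamate bonds. In the liver they sit mostly in the lumen of the endoplasmic reticulum, where they break down drugs, pesticides and prodrugs and also hydrolyse stored lipids. Rodents carry many more copies than humans, in tandem clusters, and some Ces2 genes are known to be induced through the xenobiotic receptors CAR (Nr1i3) and PXR (Nr1i2).

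All 10 genes lie on mouse chromosome 8 (build GRCm38, positions from RefSeq) in a pair of clusters. Over the whole family the clusters are 11.2 Mb apart, from the end of Ces5a, a gene outside the 10, to the start of Ces2a. On the minus strand the order by rising coordinate is Ces1c (chr8:93099015-93131283), Ces1d (chr8:93166072-93197804), Ces1e (chr8:93201218-93229631), Ces1f (chr8:93256236-93279766) and Ces1g (chr8:93302369-93337209). On the plus strand the order is Ces2a (chr8:104734003-104741634), Ces2c (chr8:104847068-104854483), Ces2e (chr8:104926260-104934672), Ces3a (chr8:105048576-105061928) and Ces3b (chr8:105083733-105093929). Between genes of the same subfamily, coding sequences were 74.5% to 95.3% identical (median 78.9% over 14 pairs), and between subfamilies 62.1% to 64.7% (31 pairs). Ces3a and Ces3b, the closest pair, were 95.3% identical.

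The last 24 coding bases before the stop codon are shown for all 10 genes, because they separate enzymes kept in the endoplasmic reticulum from those without that signal and show how alike Ces3a and Ces3b are. They come from GENCODE vM21 transcripts, 5′ to 3′, with the last 4 codons in capitals.
Ces1c: cctactgaacacACAGAACACAAA
Ces1d: tcccacagggaaCATGTTGAGCTC
Ces1e: ctgccgacagaaCACACTGAGCTG
Ces1f: ccccagccatacCACAATGAGCTG
Ces1g: tcccatagggaaCATGTTGAACTG
Ces2a: tctcaggacaagCATGCAGAGCTG
Ces2c: tctcaggacaagCACAGGGAGCTT
Ces2e: tctcaggagaggCACAAAGAGTTG
Ces3a: agcaggaaagttCCAGAGGAGCTC
Ces3b: agcaggaaagttCCAGAGGAGCTC
The retention signal of these enzymes, a histidine, any residue, a glutamate and a leucine, is encoded at the end of 7 of the 10 genes. Ces1c, Ces3a and Ces3b end without it. Ces1c is known as the carboxylesterase that mouse liver secretes into plasma.

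Reads cannot always be split between such copies. Of all runs of 50 bases in the Ces3a transcript, 30.9% also occur in Ces3b, and 26.1% of those of Ces3b occur in Ces3a. Ces2c shares 38.2% with Ces2d-ps, a neighbouring pseudogene, and Ces1c shares 10.7% with Ces1b. The shares for Ces1d, Ces1e, Ces1f, Ces1g, Ces2a and Ces2e lie between 0.533% and 3.36% over all other carboxylesterase genes. Values for Ces3a, Ces3b and Ces2c are therefore less certain than the others, since how the authors counted shared reads is not given in the sources used here.

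Library totals, in M (10⁶ counts), were 7.38 to 10.2 M in the livers, 8.72 to 12.1 M in the prefrontal cortex and 8.28 to 12 M in the striatum. The hepatocyte markers (Alb, Apoa1, Ttr, Serpina1c, Fgb, Tat and Cps1) were all listed in the liver and summed to at least 79120.3 CPM in every library. CPM here are counts per 10⁶ of a library's total after TMM scaling, which evens out differences in composition. Libraries also differed in clock genes. The clock index of a liver, the log2 CPM of Dbp (a transcription factor that the circadian clock drives) minus that of Arntl (a core clock activator), was 2.05, 2.49, 5.19 and 5.45 in vehicle livers 3, 4, 7 and 8 and 5.77 to 8.61 in the 16 exposed livers. Summed neuron markers were 6.44 to 81.5 CPM, and their highest values were 67.4, 43.9, 81.5 and 67.9 CPM from the lowest to the highest dose group.

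In vehicle livers Ces1c was by far the most abundant member. Divided by transcript length, its level was 2002 ± 171 CPM per kb (SD, n = 4), which was 66.4% ± 3 of the summed per-length level of the 10 members. Ces1d, a triacylglycerol hydrolase that mobilises stored lipid, followed at 279 ± 20.8 CPM per kb. Ces1f stood at 167 ± 29.1 and Ces3a at 149.8 ± 13.1 CPM per kb, and their libraries overlapped. Next came Ces2a at 98 ± 26.4, Ces2e at 88.2 ± 25.2, Ces1g at 81 ± 9.35, Ces3b at 76 ± 30.7 and Ces1e at 64.3 ± 4.96 CPM per kb. No neighbours in that run of 5 were separate in their per-length levels. Ces2c was lowest at 8.12 ± 5.14 CPM per kb. Libraries of neighbouring genes did not overlap between Ces1c and Ces1d, Ces1d and Ces1f, Ces3a and Ces2a, and Ces1e and Ces2c.

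By the mean per-length level that order differed in the exposed groups. Ces3a was in the second place at every dose, with 286 ± 108 CPM per kb at 0.1 mg/kg (SD, n = 4), 404 ± 153 at 1 mg/kg (SD, n = 6) and 314 ± 105 at 6 mg/kg (SD, n = 6). Ces1d was then the third, at 284 ± 138, 219 ± 104 and 281 ± 121 CPM per kb. Ces2a kept the fifth place at 0.1 and 1 mg/kg and was the fourth at 6 mg/kg with 197 ± 18.9 CPM per kb. Its libraries there overlapped those of Ces1f, the next in order. Ces1c was first in every group, and at 6 mg/kg its 1707 ± 367 CPM per kb made up 58% ± 4.63 of the members' sum. Together the 10 genes took 0.587% ± 0.0463 of all counts in vehicle (SD, n = 4) and 0.599% ± 0.103 at 6 mg/kg (SD, n = 6), and the single libraries overlapped. In bulk samples, less RNA per cell and fewer cells of a type cannot be told apart, for these levels and for every difference below.

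**Figure D1:**
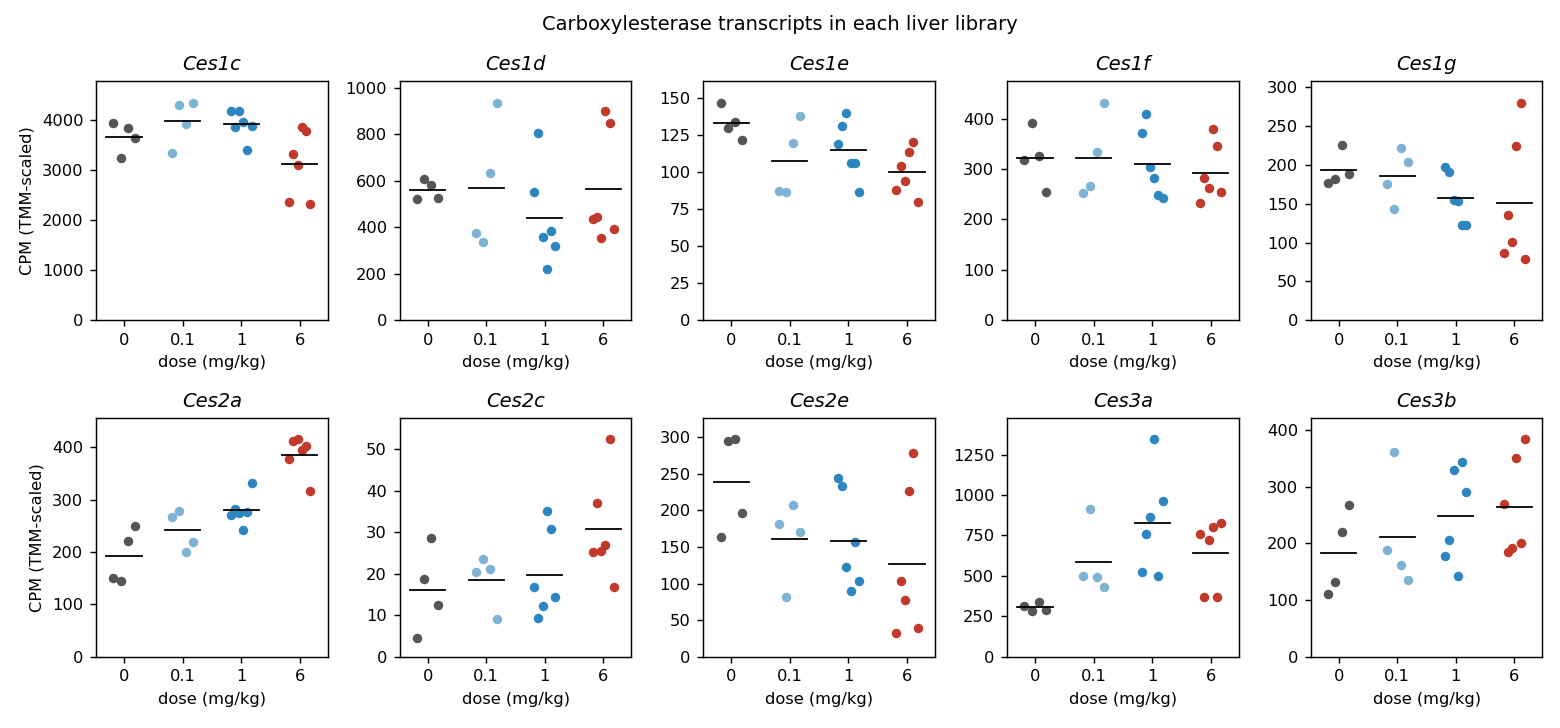
Level of each member in each of the 20 livers (points, CPM on a linear axis from 0) by dose in mg/kg, with the group mean as a bar. Ces2a was 145 to 249 CPM in vehicle and 316 to 415 CPM at 6 mg/kg, and Ces3a was 283 to 341 CPM in vehicle and 368 to 1343 CPM in the exposed livers.

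The comparison of each dose with vehicle asks which transcripts the mixture alters in the liver. Ces2a rose at 6 mg/kg and was the only member that passed (edgeR quasi-likelihood test, Benjamini-Hochberg adjusted p under 0.05 over all genes tested). Over all 12968 genes tested, 363 passed at that dose, 2.8%, of which 234 were higher and 129 lower. Ces2a encodes a hydrolase of acylglycerols and drug esters in the endoplasmic reticulum. Its level was 151, 145, 222 and 249 CPM in vehicle livers 3, 4, 7 and 8, and 266, 279, 201 and 219 CPM at 0.1 mg/kg. At 1 mg/kg it ran from 242 CPM through a median of 275 to 331 CPM, and at 6 mg/kg from 316 through 399 to 415 CPM. Every 6 mg/kg liver was above every vehicle liver and every 0.1 mg/kg liver, while the 0.1 and 1 mg/kg groups each overlapped vehicle.

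The fold change of Ces2a at 6 mg/kg was 2.01, a log2 difference of 1.01 (SE 0.173, edgeR adjusted p = 0.00932). Its log2 difference was 0.54 (SE 0.171) at 1 mg/kg with an edgeR adjusted p of 0.508, and 0.33 (SE 0.184) at 0.1 mg/kg with 0.994. Between 6 and 0.1 mg/kg it was 0.68 (SE 0.171, edgeR adjusted p = 0.143), a contrast that uses no vehicle liver and in which 5 of all genes passed, 0.0386%. DESeq2 gave 0.0054 for that contrast. Fitted as a slope over the rank of the 4 doses, Ces2a rose by 0.33 on the log2 scale per step (SE 0.0524, edgeR adjusted p = 0.00351), and it was again the only member to pass among 624 genes, 4.81%. The slope of Ces2a passed without each single library in turn, but not with the clock index as a covariate (0.29 per step, edgeR adjusted p = 0.274, 3 of all genes passing) or without vehicle livers 3 and 4 (0.27, edgeR adjusted p = 0.0727). The counts over all genes rest on single livers: with 1 liver left out, 79 (without liver 58) to 1317 (without liver 56) passed for the slope, and 3 (without vehicle liver 4) to 1302 (without liver 56) at 6 mg/kg.

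Ces2a differed within the vehicle group along with the clock index. Vehicle livers 3 and 4, with indices of 2.05 and 2.49, had 151 and 145 CPM, and livers 7 and 8, with 5.19 and 5.45, had 222 and 249 CPM. With the clock index as a covariate, the log2 difference at 6 mg/kg was 0.78 (SE 0.266), with an unadjusted p of 0.0077 and an edgeR adjusted p of 1, and 0 of all genes passed (473 at an unadjusted p under 0.05). With livers 3 and 4 left out together, a choice made after the data were seen, it was 0.71 (SE 0.198, edgeR adjusted p = 0.405). With neuron markers as a covariate the difference was 1.00 (SE 0.171, edgeR adjusted p = 0.00623). The call was also lost, at log2 differences of similar size, without liver 3 alone (0.91, edgeR adjusted p = 0.0641), without liver 4 alone (0.89, 0.0586) and with only the 2 groups compared in the fit (1.02, 0.0571), where 13 of all genes passed. Since every exposed liver had a higher clock index than every vehicle liver, dose and clock index cannot be told apart in full.

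**Figure D2:**
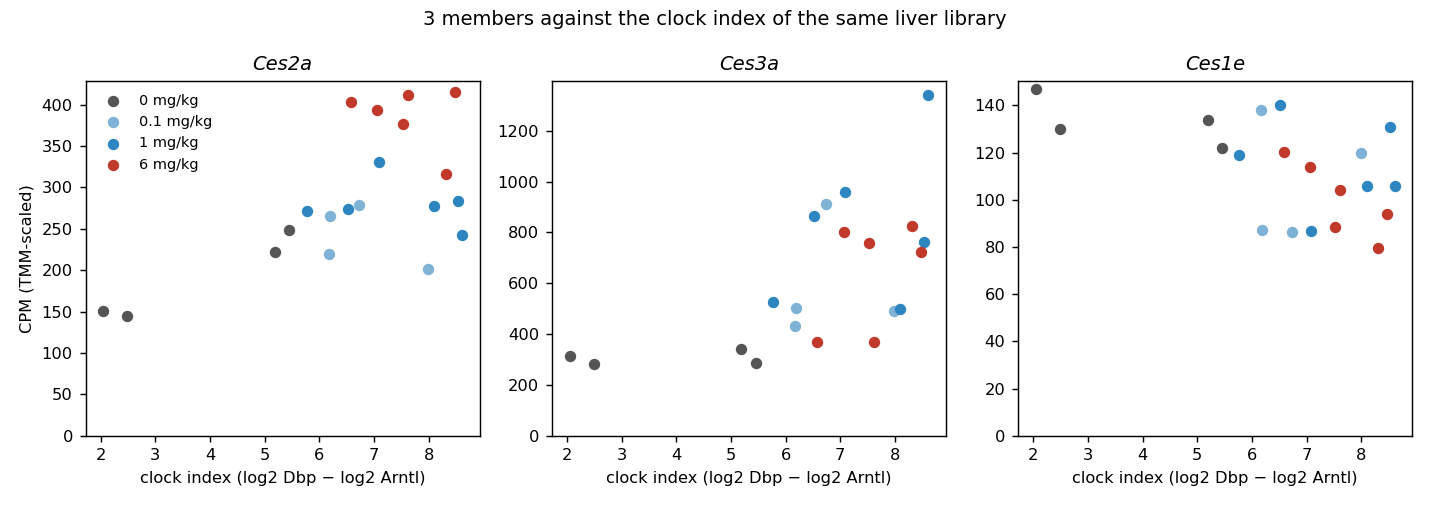
Levels of Ces2a, Ces3a and Ces1e (CPM, linear axes from 0) against the clock index of the same liver (log2 Dbp minus log2 Arntl), coloured by dose. The 4 vehicle livers lie at 2.05 to 5.45 and the 16 exposed livers at 5.77 to 8.61, and Ces2a is at least 316 CPM at 6 mg/kg and at most 331 CPM at the lower doses.

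Ces3a, whose coding sequence ends without the retention signal, was higher in all 16 exposed livers than in any vehicle liver. The share of all genes separate over the pooled doses was not computed, for Ces3a or for the pooled counts of other members below. The clock index separates the same livers. Ces3a stood at 315, 283, 341 and 288 CPM in vehicle livers 3, 4, 7 and 8, which is a narrow range. At 0.1 mg/kg it was 502, 913, 492 and 432 CPM in livers 23, 25, 28 and 29. At 1 mg/kg it ran from 497 CPM through a median of 813 to 1343 CPM, and at 6 mg/kg from 368 through 741 to 826 CPM. The groups did not overlap at any dose, but within a dose the exposed livers spread by 2.11 to 2.7 times from lowest to highest, against 1.21 times in vehicle.

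The log2 difference of Ces3a from vehicle was 0.93 (SE 0.318) at 0.1 mg/kg, 1.43 (SE 0.302) at 1 mg/kg and 1.07 (SE 0.298) at 6 mg/kg. None of these passed, with edgeR adjusted p of 0.994, 0.171 and 0.0536 and unadjusted p of 0.00768, 9.91e-05 and 0.00165. DESeq2 called it at 1 mg/kg (adjusted p = 0.00308) and at 6 mg/kg (0.00797), and not at 0.1 mg/kg (0.669). At 6 mg/kg the edgeR adjusted p also fell under 0.05 without liver 53 (0.046), liver 55 (0.0493) or liver 56 (0.0207), with a filter of at least 10 counts on average (0.0488) and with neuron markers as a covariate (0.037). Between 6 and 0.1 mg/kg the difference was 0.13 (SE 0.289, edgeR adjusted p = 0.879), so no step from the lowest to the highest dose was detectable. With Ces3a and Ces3b counted together, because of the reads they can share, the difference from vehicle was 0.70 (SE 0.291), 1.13 (SE 0.274) and 0.89 (SE 0.272) at 0.1, 1 and 6 mg/kg. With the clock index as a covariate, the difference of Ces3a alone was 0.58 (SE 0.441), 0.98 (SE 0.483) and 0.60 (SE 0.494).

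The other Ces3 copy did not follow in every liver. Ces3b was 111, 132, 220.3 and 267 CPM in the vehicle livers, low in livers 3 and 4 as Ces2a was. It ran from 185 CPM through a median of 235 to 383 CPM at 6 mg/kg, which overlaps vehicle. Its log2 difference was 0.22 (SE 0.349), 0.44 (SE 0.322) and 0.53 (SE 0.323) at 0.1, 1 and 6 mg/kg, and it did not pass at any dose. The CPM ratio of Ces3a to Ces3b was 1.08 to 2.84 in vehicle, 2.53 to 3.17 at 0.1 mg/kg and 1.82 to 3.79 at 6 mg/kg. At 1 mg/kg it was 9.45 in liver 46, which had 1343 CPM of Ces3a and 142 CPM of Ces3b, and 1.45 to 3.72 in the other 5 livers.

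At 1 mg/kg 0 members and 0 of all 12968 genes passed in edgeR, 0%. At an unadjusted p under 0.05 there were 2 members, Ces2a and Ces3a, and 1095 genes, and DESeq2 called 1 member and 24 genes. At 0.1 mg/kg 0 members passed while 2 genes did, 0.0154%. There, 1 member (Ces3a) and 532 genes had an unadjusted p under 0.05, and DESeq2 called 0 members and 12 genes. At 6 mg/kg the unadjusted p was under 0.05 for 4 members, Ces2a, Ces3a, Ces2c and Ces1e, and for 3136 genes.

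Counted by separation of the groups, 3 members did not overlap between vehicle and 6 mg/kg, Ces2a and Ces3a above and Ces1e below, where 6.76% of all genes did not overlap. At 1 mg/kg Ces3a alone was separate (1.59% of all genes), and at 0.1 mg/kg again Ces3a alone (4.13%). Between 0.1 and 6 mg/kg Ces2a alone was separate (3.12% of all genes). The median log2 difference of the 10 members at 6 mg/kg was -0.06 and that of all genes was 0.02.

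**Figure D3:**
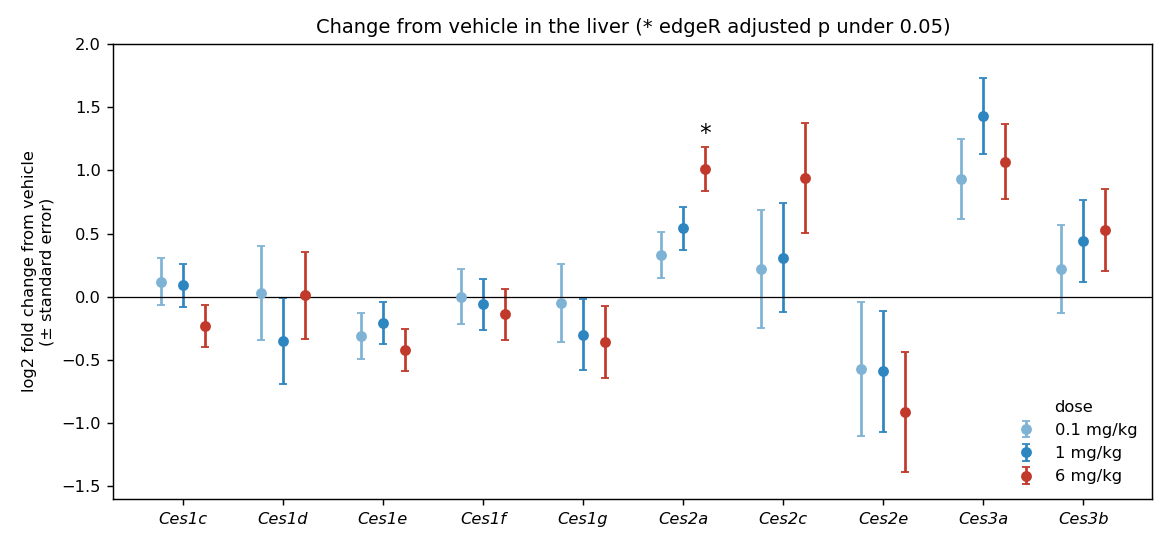
Log2 fold change of each member from vehicle at 0.1, 1 and 6 mg/kg (points) with its standard error (bars), and an asterisk where the edgeR adjusted p was under 0.05. Ces2a steps up with dose to 1.01, Ces3a is at 0.93, 1.43 and 1.07, and the 5 Ces1 members stay between -0.42 and 0.12.

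Of the Ces2 genes, Ces2a and its neighbours did not have the same sign. Ces2c, a lipid and drug hydrolase of liver and intestine, was measured at 47 to 539 counts per liver. It was 4.55, 18.6, 28.5 and 12.4 CPM in vehicle and ran from 16.9 CPM through 26.3 to 52.3 CPM at 6 mg/kg, and the groups overlap. Its log2 difference was 0.94 (SE 0.438, edgeR adjusted p = 0.193). The pseudogene Ces2d-ps, which shares sequence with it and was looked at after its values were seen, had 1.14 (SE 0.438, edgeR adjusted p = 0.126). Both summed gave 1.01 (SE 0.429, edgeR adjusted p = 0.157).

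Ces2e, best known from the intestine, had the widest spread of the 10 members at 6 mg/kg, with a coefficient of variation (SD over mean) of 80.8%. In vehicle it was 28.6%, and there Ces2c was more uneven, at 63.2%. The level of Ces2e was 164, 295, 297 and 197 CPM in vehicle livers 3, 4, 7 and 8. At 0.1 mg/kg it was 181, 82.3, 208 and 171 CPM, and at 1 mg/kg it ran from 89.4 CPM through 140.3 to 244 CPM. At 6 mg/kg it ran from 32.7 CPM in liver 52 through a median of 90.6 to 278 CPM in liver 56, a spread of 8.51 times. No exposed liver exceeded the highest vehicle liver, and 9 of the 16 lay below the lowest. Its log2 difference was -0.57 (SE 0.53), -0.59 (SE 0.477) and -0.91 (SE 0.476) at 0.1, 1 and 6 mg/kg, and it did not pass (edgeR adjusted p = 0.24 at 6 mg/kg).

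The balance of the Ces2 genes therefore differed from liver to liver. The CPM ratio of Ces2a to Ces2e was 0.859 ± 0.326 in vehicle (SD, n = 4, range 0.493 to 1.27) and 5.32 ± 3.86 at 6 mg/kg (SD, n = 6, range 1.45 to 11.5). It was 1.78 ± 1.1 at 0.1 mg/kg (SD, n = 4) and 2.04 ± 0.835 at 1 mg/kg (SD, n = 6). These ratios are a description, since the pair was picked with the values known.

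The Ces1 genes did not pass at any dose. Ces1c was 3940.5, 3230.0, 3834 and 3631 CPM in vehicle livers 3, 4, 7 and 8, and at 6 mg/kg it ran from 2315 CPM through 3207 to 3859 CPM. Its 6 mg/kg livers included 3 below the lowest vehicle liver, and its log2 difference was -0.23 (SE 0.168, edgeR adjusted p = 0.406). Ces1e, known as egasyn, which anchors beta-glucuronidase in the endoplasmic reticulum, was 147, 130.2, 134 and 122 CPM in vehicle. At 6 mg/kg it ran from 79.7 CPM through 98.7 to 120.2 CPM, all below vehicle. Its log2 difference of -0.42 (SE 0.168) had an edgeR adjusted p of 0.14. Over all doses, 13 of the 16 exposed livers lay below the lowest vehicle liver for Ces1e and none above the highest.

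Ces1d was even in vehicle, 523 to 608 CPM, and uneven in every exposed group. It spanned 338 to 935 CPM at 0.1 mg/kg, 218 to 803 CPM at 1 mg/kg and 355 to 899 CPM at 6 mg/kg. Exposed livers lay on both sides of vehicle, 5 above its highest and 10 below its lowest value, and the log2 difference at 6 mg/kg was 0.01 (SE 0.342). Ces1f, a relative of Ces1d that also acts on lipids, was 254 to 391 CPM in vehicle and 233 to 380.4 CPM at 6 mg/kg, with a log2 difference of -0.14 (SE 0.199). Ces1g, which is known to limit lipid secretion from the liver, was 177 to 226 CPM in vehicle and 79.1 to 280.3 CPM at 6 mg/kg, with -0.36 (SE 0.283).

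The spread at 6 mg/kg had 1 shared feature. Livers 55 and 56 held the 2 highest values of the 5 Ces1 members and of Ces2e. Ces1b, a Ces1 gene outside the set of 10, had its 2 lowest values of the group in these livers, 60.6 and 56.6 CPM, against 80 to 135 CPM in the other 4. Ces2g, a Ces2 gene outside the set, had its 2 highest there, 56.2 and 52.3 CPM, against 16.4 to 33.1 CPM in the other 4. Ces1d was 899 and 846 CPM there and at most 442 CPM in livers 52, 53, 54 and 58. Ces1g was 224 and 280.3 CPM against at most 136 CPM, and Ces2e was 226 and 278 CPM against at most 103 CPM. Ces2a was 394 and 403 CPM in these 2 livers, inside the range of the other 4. Their clock indices of 7.06 and 6.58 were the lowest of the group, and their neuron markers were 10.5 and 8.92 CPM, with 9.85 CPM in liver 53 and 22.3 to 67.9 CPM in the other 3. The part of the clock index in this spread was tested only as the correlations within dose groups given below.

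To see which members vary together apart from dose, each group mean was taken off and all 45 pairs were correlated over the 20 livers, with p from 100000 permutations within dose groups and adjusted over the 45 pairs. Of these, 12 pairs passed and all 12 were positive. They joined only Ces1c, Ces1d, Ces1e, Ces1f, Ces1g and Ces2e, which form 15 pairs with r of 0.42 to 0.91. The closest pair was Ces1g with Ces2e (r = 0.91, rho = 0.88, adjusted permutation p = 0.00255), although the genes lie in different clusters. Without the 2 livers farthest from the median of Ces1g its r was 0.84. Ces1d with Ces1f gave r = 0.84 (rho = 0.77, adjusted permutation p = 0.00255) and 0.76 without 2 livers, and Ces1e with Ces1f gave r = 0.80 (rho = 0.84, adjusted permutation p = 0.00324) and 0.74.

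No pair with Ces2a, Ces2c, Ces3a or Ces3b passed. Ces3a with Ces2e was the most negative at r = -0.59 (rho = -0.62, adjusted permutation p = 0.0823), and Ces2a with Ces3b reached r = 0.49 (rho = 0.45, adjusted permutation p = 0.186). Ces3a with Ces3b had r = 0.31 (rho = 0.30, adjusted permutation p = 0.356) in spite of their shared sequence. Both genes of a pair were read in the same libraries and share their scaling. How often pairs of other liver genes correlate this strongly within dose groups was not computed. The passing pairs therefore cannot be called particular to these members. Against the clock index, taken the same way within dose groups, r was -0.32 to 0.31 over the 10 members and none passed, with adjusted permutation p of 0.36 or more.

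**Figure D4:**
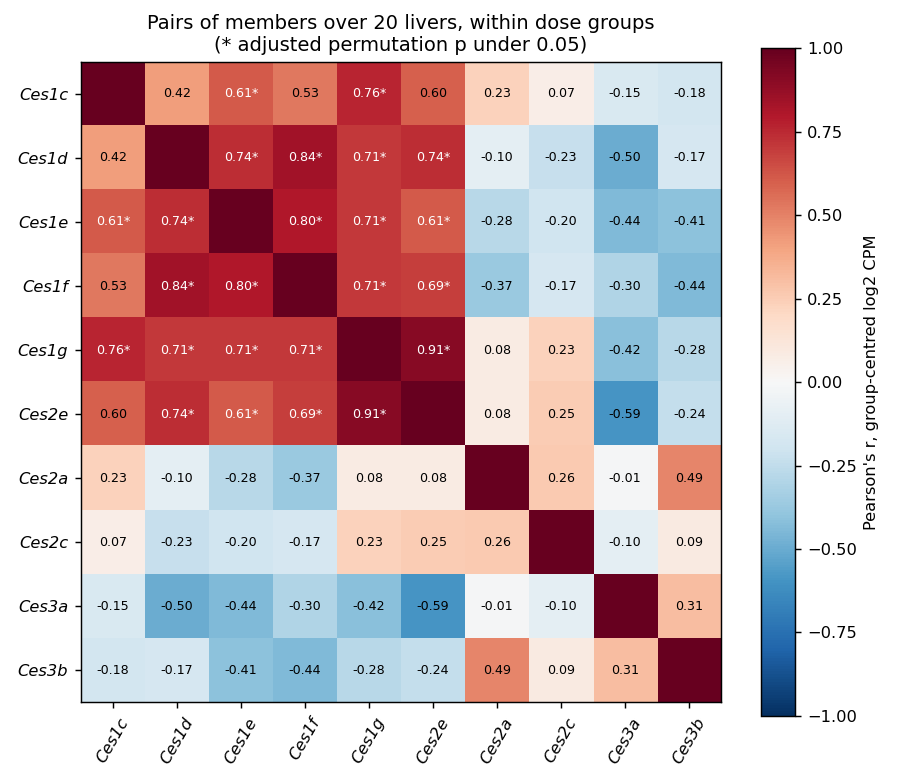
Pearson's r of each pair of members over 20 livers after each dose group's mean log2 CPM was removed, from -1 (blue) to 1 (red), with an asterisk where the adjusted permutation p was under 0.05. The 12 marked pairs all lie among the 5 Ces1 members and Ces2e.

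Upstream sequence is shown for Ces1c and Ces1e, whose stretches hold a D-box motif, and for Ces2a and Ces2e, whose stretches do not. Whether the motif goes with how the members vary was not tested. RefSeq promoter windows were matched for 7 of the 10 members, not for Ces1d, Ces1f and Ces3a. Each line gives 150 bases before the start that the promoter table uses, 5′ to 3′ on the gene's strand in GRCm38.p6, with matches to the D-box (TTATGTAA or TTACGTAA, bound by Dbp and its relatives Tef and Hlf) in capitals. Those of Ces1c (chr8:93131284-93131433) and Ces1e (chr8:93229620-93229769) are on the minus strand. For Ces1e the start used, base 93229619, lies 12 bases inside the gene span given above, so its window and motif positions count from there, and for Ces3b the start lies 22 bases inside. Those of Ces2a (chr8:104733853-104734002) and Ces2e (chr8:104926110-104926259) are on the plus strand.
Ces1c: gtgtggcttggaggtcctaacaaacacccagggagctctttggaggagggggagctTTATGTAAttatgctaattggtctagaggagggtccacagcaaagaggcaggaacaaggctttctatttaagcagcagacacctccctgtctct
Ces1e: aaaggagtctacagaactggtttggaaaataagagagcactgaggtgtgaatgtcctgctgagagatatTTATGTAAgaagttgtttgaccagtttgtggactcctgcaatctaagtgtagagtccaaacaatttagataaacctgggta
Ces2a: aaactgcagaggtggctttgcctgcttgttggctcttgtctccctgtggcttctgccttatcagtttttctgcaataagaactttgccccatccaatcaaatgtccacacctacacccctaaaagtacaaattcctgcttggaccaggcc
Ces2e: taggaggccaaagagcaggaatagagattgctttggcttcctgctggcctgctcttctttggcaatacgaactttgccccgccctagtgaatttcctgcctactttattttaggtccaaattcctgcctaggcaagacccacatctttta
The D-box was searched on both strands of the full 300-base windows (250 bases before and 50 after the start). It occurred in 3 of 7 members, Ces1c at -94 to -87, Ces1e at -81 to -74 and Ces1g at -232 to -225, and in 1.06% of 27025 promoters.

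The nuclear receptor half-site AGGTCA occurred in 1 of the 7 windows, that of Ces2a at -226 to -221, and in 16% of all promoters. The TATA box TATAAA occurred in those of Ces1g and Ces3b and in 14.2% of all. None of the 7 held the form AGTTCA (14% of all), a DR4 pair of half-sites (0.0666%), the antioxidant core TGACNNNGC (12.5%), the dioxin response core GCGTG (32.5%) or the HNF4 motif CAAAGTCCA (0.477%). A match is a run of letters and says nothing about binding, and sites outside the windows were not searched.

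Several lists of genes outside the family were compared in the same livers, and their link to the members was not tested. Of 31 xenobiotic receptors and their marker targets, 5 rose at 6 mg/kg and 0 fell, where 2.8% of all genes passed. With the clock index as a covariate, or without vehicle livers 3 and 4, 0 of all genes passed at 6 mg/kg (473 and 1290 at an unadjusted p under 0.05 in edgeR), so these calls and the 6 mg/kg calls of the gene lists that follow were lost there. The index is built from Dbp and Arntl, so its use as a covariate is no test of the clock genes themselves. Cyp2b10, the classic CAR target, averaged 1.53 CPM (SD 0.621, n = 4) with vehicle alone and 100.3 CPM (SD 103, n = 6) with the 6 mg/kg dose, and its log2 difference was 6.01 (SE 0.912, edgeR adjusted p = 0.00592). Cyp1a2, a target of the dioxin receptor, had 1.44 (SE 0.231, edgeR adjusted p = 0.00592), Cyp2c50 1.16, the exporter gene Abcc3 1.07 and Nr1i2 0.71. Nr1i3 had 1.03 (SE 0.311) and did not pass (edgeR adjusted p = 0.0698).

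Among other liver ester hydrolases, 24 of 26 could be tested and 1 rose, Lipe (hormone-sensitive lipase), by 0.81 on the log2 scale (SE 0.193, edgeR adjusted p = 0.0323). Aadac, an arylacetamide deacetylase that shares drug substrates with the carboxylesterases, had -0.53 (SE 0.146, edgeR adjusted p = 0.0505), and the plasma enzyme gene Bche had -0.60 (SE 0.198, edgeR adjusted p = 0.0848). Pon3 had -0.39, Abhd6 0.81 and Pon2 -0.89 at 6 mg/kg, and none of these passed. For the slope over dose rank 1 gene of this list rose and 2 fell, where 4.81% of all genes passed. They were Lipe (0.24 per step, edgeR adjusted p = 0.0269), Aadac (-0.18, 0.0448) and Bche (-0.21, 0.047). With the clock index as a covariate only 3 of all genes passed for the slope.

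Of 9 other carboxylesterase genes, 2 could be tested in the liver and 0 passed (edgeR). Ces2g, in the Ces2 row, had 51.8 ± 7.41 CPM in vehicle and a log2 difference of -0.56 at 6 mg/kg (SE 0.256, edgeR adjusted p = 0.18). Ces1b, beside Ces1c, had 84.3 ± 4.76 CPM in vehicle (SD, n = 4) and 0.01 (SE 0.201). Ces1a, Ces2h and Ces4a were listed at under 1 CPM on average in every group. Of 16 clock genes, 5 rose (Tef, Per3, Dbp, Usp2 and Ciart, by 1.42 to 2.88 on the log2 scale) and 1 fell, Arntl by 1.98. Of 17 tested genes of lipid droplets and lipoprotein assembly, 0 passed and 2 had an unadjusted p under 0.05.

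Across the 20 livers, the gene whose log2 CPM was most like Ces2a was Cnmd (r = 0.87), followed by Dhx58 (0.82) and Cyp1a2 (0.80), out of 12967 others. For Ces3a they were C8a (0.89), F11 (0.81) and Slc13a3 (0.81), and C8a and F11 encode plasma proteins made by the liver. For Ces1e they were Cacfd1 (0.86), Atf5 (0.85) and Otulin (0.84). These values include the differences between dose groups and are a description of the same libraries.

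In the brain the family was barely counted. Ces1d was the only member listed in the striatum, at 1, 7, 0 and 0 counts in vehicle animals 3, 4, 7 and 8, and at 6, 2, 4, 13 and 4 counts at 0.1 mg/kg. It ran from 0 through 4 to 26 counts at 1 mg/kg and from 3 through 7 to 12 counts at 6 mg/kg. The groups overlap, and the gene was below the count needed for the fit. Fitted without that filter, its log2 difference at 6 mg/kg was 1.91 (SE 0.952, edgeR adjusted p = 0.365). Each such library of 8.28 to 12 M counts allows only this precision.

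Choroid plexus markers (Folr1, Kl, Clic6, Kcne2 and Otx2), which mark the tissue that secretes cerebrospinal fluid into the brain ventricles, moved with Ces1d. Striatum 45, with 26 counts of Ces1d, had the highest marker sum at 277 CPM, and striatum 52, with 12 counts, had 187 CPM. The order was not the same throughout. Striatum 28, with 13 counts, had 100.4 CPM, and striatum 41, with 7 counts, had 104 CPM. Across the 21 striatum libraries r was 0.88 and rho 0.79 (permutation p = 1e-05, the smallest that 100000 permutations can give, and 2e-05), with r = 0.76 without the 2 libraries farthest from the median and 0.90 within dose groups. Ttr, made both by hepatocytes and by choroid plexus, was 4103 CPM in striatum 45. Of the 7 hepatocyte markers, Apoa1, Ttr, Tat and Cps1 are listed in the striatum and summed to 4103 CPM in that library. Alb, Serpina1c and Fgb are not listed there. The source of the Ces1d counts was not tested. The part of the choroid plexus markers in the differences between dose groups was not tested either.

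**Figure D5:**
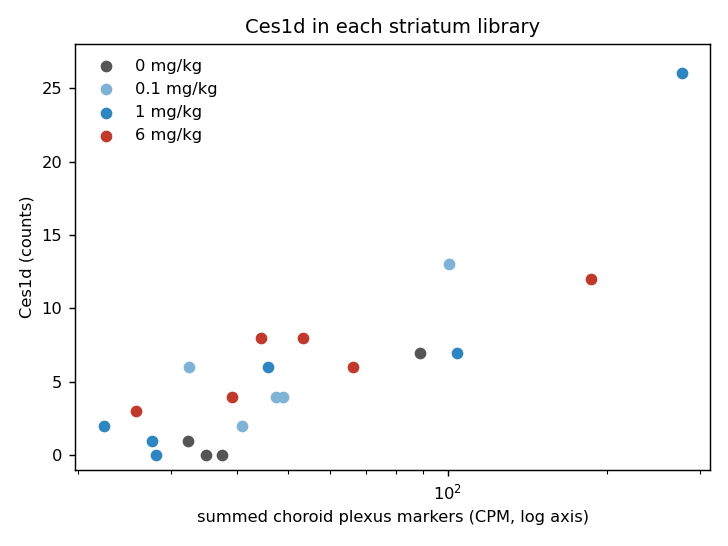
Counts of Ces1d in each of the 21 striatum libraries against the summed CPM of 5 choroid plexus markers (log axis), coloured by dose. Most libraries hold under 10 counts, and the library with 26 counts has the highest marker sum, 277 CPM.

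In the prefrontal cortex the listed family genes were Ces1a, Ces2b, Ces2g and Ces5a, with at most 14 counts in a library. In the striatum they were Ces1a, Ces1d, Ces2g and Ces5a, and apart from Ces1d they reached at most 12 counts. Every gene listed in these tables has at least 10 counts over its libraries, and members not listed were not analysed there.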

How the data were processed

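Per the labels, RNA was isolated from liver, prefrontal cortex and striatum with TRIzol and spin columns, and either poly(A) selection or ribosomal RNA depletion was used, without saying which. The authors deposited whole-number read counts per Entrez gene, 1 table a tissue. FastQC, HISAT2 and build mm10 are named in the submitters' processing notes, and the counting tool, annotation and strand setting are not given in the sources used here. Columns were matched to samples by title and grouped by tissue and dose. No pair of same-group libraries agreed within sampling noise (smallest chi-square per degree of freedom 2.94). The labels name no batch, and the animal numbers in the titles were taken as separate mice.

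Each tissue's counts entered edgeR 4.0.16 under R 4.3.3 (filterByExpr, TMM, robust quasi-likelihood F test, all dose groups in 1 fit, Benjamini-Hochberg over all genes tested). Standard errors are the log2 difference over the square root of F, and a prior count of 2 was added for log2 CPM. The fit was tested on simulated data. The alternatives were DESeq2 1.42.0, other scaling and filters, 1 surrogate variable (sva 3.50.0), covariates, single libraries left out and, added after seeing the data, summed near-identical copies and vehicle livers 3 and 4 left out. Permutation tests were two-sided. Symbols and positions came from RefSeq GRCm38.p6, transcripts from GENCODE vM21. All members are named, as are other carboxylesterases in a table, up to 6 genes a list by smallest liver p at 6 mg/kg, and the 3 genes most like Ces2a, Ces3a and Ces1e. The members and lists were chosen with earlier results of these data known.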

Additional observations from a re-analysis of the deposited data

Results flagged for a closer look

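Among the 0.1 mg/kg livers, Ces3a in liver 25 was 913 CPM and in the other 3 livers 432 to 502 CPM, so its gap to the nearest liver was 0.856 of the group's range, above Dixon's limit of 0.829 for 4 samples. Over 40 group and gene combinations checked, 1 was flagged and chance gives about 2. Liver 25 also had the highest Ces3b of its group, 361 CPM, and neuron markers of 43.9 CPM.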

How the results depend on the processing

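No paired analysis was possible because the dose groups compared within a tissue share no animal number. The number of members passing in the liver at 6 mg/kg was 1, and it was 2 with DESeq2, with a mean of at least 10 counts and with neuron markers as a covariate, and 0 with only the groups compared, with the clock index as a covariate and with vehicle livers 3 and 4 left out together. Without single libraries it was 0 to 2: 0 without vehicle liver 3 or 4, 2 without 6 mg/kg liver 53, 55 or 56. At 1 mg/kg, and for 6 against 0.1 mg/kg, it was 0 and with DESeq2 1. For the slope it was 1, with DESeq2 2, with the clock index 0, without vehicle livers 3 and 4 together 0, and without single libraries 1 to 2 (2 without liver 56). Over all genes, the 363 called at 6 mg/kg were 1138 with DESeq2, 600 with neuron markers, 241 without a filter on low counts, 13 with only the groups compared and 0 with the clock index or without livers 3 and 4. Each of the 10 livers of these groups moved that count by over 1.5 times when left out: to 11, 3, 94 and 137 without vehicle livers 3, 4, 7 and 8, to 89, 227, 153 and 60 without livers 52, 53, 54 and 58, and to 1029 and 1302 without livers 55 and 56. The 624 of the slope were 1301 with DESeq2, 275 with 1 surrogate variable, 414 without a filter, 8 without livers 3 and 4 together and 3 with the clock index. They were 82, 112, 274 and 309 without vehicle liver 3, 4, 7 or 8, 328 and 367 without liver 28 or 29, 1002 without liver 41, 153, 315, 212 and 79 without liver 52, 53, 54 or 58, and 1224 and 1317 without liver 55 or 56. For 6 against 0.1 mg/kg the 5 were 143 with DESeq2, 53 with 1 surrogate variable, 14 when genes averaging under 10 counts were dropped, 10 with neuron markers, 3 with the clock index and 0 with only the groups compared. They were 1 without liver 25, 28, 53 or 54, 2 without liver 29, 52 or 56, 3 without liver 58 and 9 without liver 55. In the brain regions 0 members passed under every alternative that was run. Ces1d entered the striatum fit only without the filter or without 1 vehicle library, and without vehicle animal 4 its unadjusted edgeR p was under 0.05 at all 3 doses. Single libraries were not left out in the prefrontal cortex, where no member is listed.

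Every reversed sign below is a log2 difference of a member that did not pass, in edgeR, in the comparison named, and the cause was not tested. With the clock index as a covariate, Ces1f was 0.25, 0.25 and 0.18 at 0.1, 1 and 6 mg/kg and 0.01 for the slope, Ces1g 0.21 and 0.01 at 0.1 and 1 mg/kg, Ces2c -0.27 and -0.31, and Ces3b -0.15 and -0.02 there, and Ces1d 0.04 for 6 against 0.1 mg/kg and 0.07 for the slope. With 1 surrogate variable, Ces1f was 0.09, 0.09 and 0.08 at the rising doses and 0.02 for the slope, Ces1g 0.07 at 0.1 mg/kg, and Ces1d 0.22 for 6 against 0.1 mg/kg and 0.08 for the slope. With vehicle livers 3 and 4 left out together, Ces1f was 0.15, 0.09 and 0.01 at the rising doses, Ces2c -0.14 and -0.06 at 0.1 and 1 mg/kg, and Ces3b -0.20 at 0.1 mg/kg. With neuron markers, Ces1d was -0.12 at 0.1 mg/kg and 0.13 for 6 against 0.1 mg/kg. Ces1d was -0.00 at 6 mg/kg without a filter on low counts, and its slope over mg/kg was 0.02.

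Without single libraries, Ces1d ranged from -0.32 to 0.21 at 0.1 mg/kg, from -0.18 to 0.11 at 6 mg/kg, from -0.20 to 0.33 for 6 against 0.1 mg/kg and from -0.09 to 0.01 for the slope. Ces1f ranged from -0.18 to 0.10 at 0.1 mg/kg, from -0.16 to 0.05 at 1 mg/kg and from -0.23 to 0.04 for 6 against 0.1 mg/kg, where Ces1e ranged from -0.20 to 0.03. Ces1g ranged from -0.15 to 0.06 and Ces3b from -0.16 to 0.46 at 0.1 mg/kg, and Ces2c from -0.09 to 0.65 at 0.1 mg/kg and from -0.00 to 0.74 at 1 mg/kg. Depth limits Ces1d in the striatum, at 0 to 26 counts, more than any member in the liver, where the least counted, Ces2c, had 47 to 539.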

Other observations

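The spread between livers of a group also differed by gene, given here as the coefficient of variation (SD over mean of CPM) with no test. It was wider at 6 mg/kg (n = 6) than in vehicle (n = 4) for 7 members. The share of all genes with a wider spread at 6 mg/kg was not computed, so this count cannot be called particular to the members. Ces1d went from 7.46% to 43.2%, Ces1g from 11.5% to 54.7%, Ces2e from 28.6% to 80.8%, Ces3a from 8.75% to 33.4% and Ces1c from 8.57% to 21.5%. Ces1e went from 7.72% to 15.6% and Ces1f from 17.4% to 19.7%. It was narrower for Ces2a, 26.9% in vehicle and 9.61% at 6 mg/kg, for Ces2c (63.2% and 40.5%) and for Ces3b (40.4% and 32.7%). In vehicle, the wide spread of Ces2a and Ces3b came with lower values in livers 3 and 4 than in livers 7 and 8, the pairs that also differ in the clock index. For Ces2c the lowest vehicle value, 4.55 CPM, was in liver 3 and the highest, 28.5 CPM, in liver 7.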
